A study of Mus musculus with 4 samples.

Results

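The enzymes that carry glucose through glycolysis, the pentose phosphate pathway, the pyruvate dehydrogenase complex and the citric acid cycle were followed in T cells that had or had not switched on Il10 one day after a tolerogenic dose of peptide. Members were taken from a list of 43 enzyme symbols, and the 40 that appear in the deposited table of regularised log (rlog) values, which holds 9546 symbols, form the set. The other 3 listed enzymes, Aldoc, Pgk1 and Idh1, had fewer than 10 counts over all libraries and are given as counts only. Of the 40, 15 belong to glycolysis and lactate dehydrogenase, 7 to the pentose phosphate pathway and 18 to pyruvate dehydrogenase and the citric acid cycle.

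All cells came from the spleens of Tg4 Nr4a3-Tocky IL-10 GFP mice, whose T cells carry the Tg4 transgenic receptor for a peptide of myelin basic protein. The mice also carry a Timer protein driven by Nr4a3, which reports T cell receptor signaling, and a green reporter of Il10. Each mouse had received 4 mg/kg of the peptide [4Y]-MBP subcutaneously and was analyzed at 24 h. CD4+ Nr4a3-Timer+ T cells were sorted into Il10-eGFP+ and Il10-eGFP− populations, with 2 libraries of each, from biological replicate mice whose age is not given in the sources used here. No unimmunized group was analysed here, so that every value compares responding cells with and without the Il10 reporter. A single transgenic receptor specificity was studied, and the methods state that the study set aside another pair of replicates as an outlier, which was not analysed here.

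Glycolysis splits glucose into pyruvate in the cytosol, and lactate dehydrogenase can turn that pyruvate into lactate. The pentose phosphate pathway branches off after the first step and makes NADPH and ribose for nucleotides, while pyruvate dehydrogenase feeds acetyl-CoA into the citric acid cycle in the mitochondrion. Activated T cells are known for taking up more glucose and raising glycolysis, with hexokinase 2 and lactate dehydrogenase A among the genes induced by the transcription factors MYC and HIF-1.

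The libraries held 644679 to 730330 counts each, and 9608 genes with at least 10 counts in all were tested. Counts came from reads of the 3′ end of transcripts, and levels are given as CPM, the counts scaled to a common library total with factors from the trimmed mean of M values (TMM). Values set against each other give both Il10-eGFP− libraries first and both Il10-eGFP+ libraries second, in replicate order, and fold changes are of Il10-eGFP+ over Il10-eGFP− cells. Il10 itself, the gene behind the sort, was counted 0 times in both Il10-eGFP− libraries and 29 and 41 times in those of Il10-eGFP+ cells. All 12 T cell markers examined, Cd3e and Cd4 among them, had counts in every library. B cell markers summed to 117 and 159 CPM in the Il10-eGFP− and 471 and 547 CPM in the Il10-eGFP+ libraries, with 8 of the 10 markers higher in Il10-eGFP+, among them Igkc, and with Cd79a at 0 in both Il10-eGFP+ libraries. Myeloid markers summed to 111 and 139 against 387 and 201 CPM, again with 8 of 10 higher. Erythroid markers summed to 160 and 140 against 273 and 206 CPM, and CD8 or NK markers to 39.4 and 70.0 against 53.9 and 69.2 CPM with Ncr1 at 0. The part of such other cells in the enzyme results was not tested. The proliferation gene Mki67 had 119 and 85 counts from Il10-eGFP− and 289 and 290 from Il10-eGFP+ T cells.

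Enzymes of central carbon metabolism were called different about as often as genes at large, and the 1 that passed the test was Hk2. It was lower in Il10-eGFP+ T cells by a log2 fold change of -0.91. By the quasi-likelihood test of edgeR with Benjamini-Hochberg adjustment over all genes, 1 of the 40 enzymes was lower and 0 were higher at an adjusted p under 0.05. Among all genes tested, 1.74% were lower and 2.35% were higher by the same rule, so that 1 member in 40 is close to the background. At an unadjusted p under 0.05, 3 enzymes were lower (Hk2, Pfkp and Pgd) and 2 were higher (Aldoa and Mdh1), where 7.49% and 7.96% of all genes were. The 2 populations did not overlap in 13 enzymes that were lower and 10 that were higher in Il10-eGFP+ T cells, with 22.3% of all genes in each direction, and they overlapped in the other 17.

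The log2 fold changes of the 40 enzymes ran from -0.92 to 0.81 with a median of -0.05, beside a median of 2.54e-05 over all genes tested. Their median absolute log2 fold change was 0.33, and it was 0.34 over all genes and 0.25 over the 4965 genes that averaged 20 counts or more. A total of 31 enzymes (77.5%) lay within 0.5 of zero, as did 64.7% of all genes and 78.4% of the genes with at least 20 counts on average. For 27 enzymes the 95% interval of the log2 fold change lay inside the range from -1 to 1. The other 13 were measured too loosely for that or, as with Hk2, reached beyond it. The summed level of the 40 enzymes was 6449 and 6521 CPM in the Il10-eGFP− and 6237 and 6169 CPM in the Il10-eGFP+ libraries. In bulk RNA, a smaller share of cells that express a gene and less RNA per cell cannot be told apart.

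**Figure D1:**
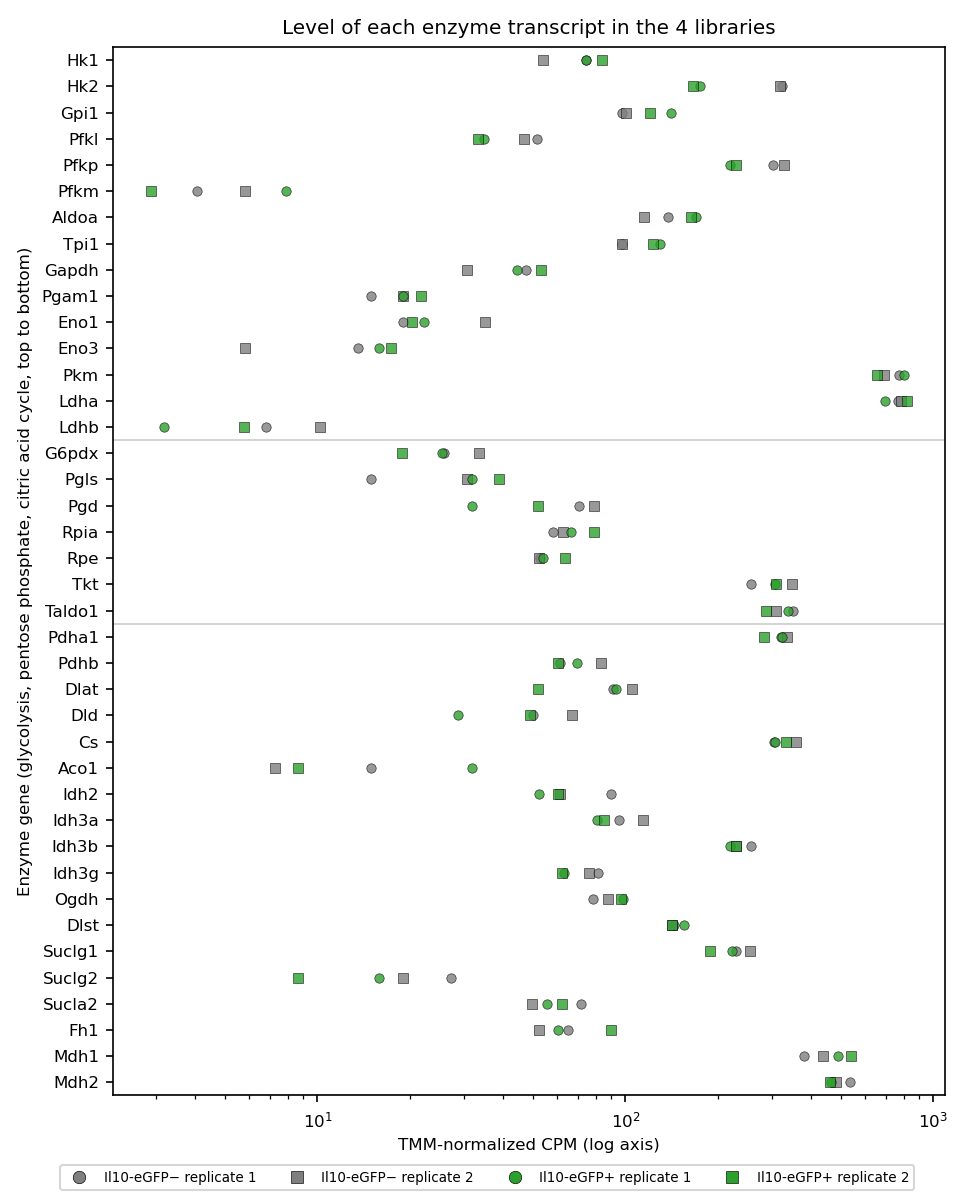
Level of each of the 40 enzyme transcripts in the 4 libraries, as TMM-normalized CPM on a log axis, with 1 row per gene, grey symbols for Il10-eGFP− and green symbols for Il10-eGFP+ (circle, replicate 1; square, replicate 2). Hk2 shows a wide gap between colours, at 322 and 318 against 174 and 166 CPM, and for 17 enzymes the colours overlap.

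Hexokinases trap glucose in the cell by phosphorylating it, and Hk2 is the inducible form. Hk2 (ENSMUSG00000000628, GRCm38 chromosome 6, 82725025 to 82774454, minus strand) had 237 and 218 counts from the Il10-eGFP− libraries and 110 and 115 from the Il10-eGFP+ libraries. Both Il10-eGFP+ libraries lay far below both Il10-eGFP− libraries, and the replicates of each population were close. As a level this was 319.9 ± 2.56 CPM against 170.1 ± 5.93 CPM (SD, n = 2 each), a ratio of 0.532. The log2 fold change was -0.91 with a standard error of 0.17 and a 95% interval from -1.24 to -0.58, and the adjusted p was 0.000214 with edgeR. It was 0.00857 with DESeq2, which called 0.77% of genes lower, and 0.0105 with limma on the rlog values, on which the difference was -0.55. With the replicate number added to the fit as a block, the adjusted p of Hk2 was 1.06e-06 with edgeR. With DESeq2 under that block it was 0.0817, which did not pass. No sequence of 50 bases at the end of the Hk2 transcript occurs in another annotated gene, and no exon of another gene overlaps it.

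Hk1, the constitutive hexokinase, went the other way in value, with 55 and 37 counts from Il10-eGFP− and 47 and 58 from Il10-eGFP+ T cells. The populations overlapped, and its log2 fold change of 0.29 did not pass (standard error 0.26, edgeR adjusted p = 0.67). Hk2 therefore made up 81.2% and 85.5% of the counts of both hexokinases in Il10-eGFP− T cells and 70.1% and 66.5% in Il10-eGFP+ T cells. The exact 95% intervals of these shares, which cover counting error only, were 76.2% to 85.5%, 80.6% to 89.6%, 62.2% to 77.1% and 58.9% to 73.5%. Gpi1, which turns glucose 6-phosphate into fructose 6-phosphate, had 72 and 69 against 89 and 83 counts, a log2 fold change of 0.39 (standard error 0.21, edgeR adjusted p = 0.384). Its 2 populations did not overlap, but the difference did not pass the test.

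The promoter of Hk2 is shown beside that of Ldha, since both are well known glycolytic targets of MYC and HIF-1 and only the first was lower here. Each is the 250 bases before a RefSeq transcript start on GRCm38.p6, written 5′ to 3′ on the gene's strand, at chr6:82774455-82774704 (minus strand) and chr7:46845554-46845803 (plus strand). Capitals mark the motif ACGTG on either strand, which is the core of hypoxia response elements and is also held in the E-box CACGTG bound by MYC with MAX.
Hk2: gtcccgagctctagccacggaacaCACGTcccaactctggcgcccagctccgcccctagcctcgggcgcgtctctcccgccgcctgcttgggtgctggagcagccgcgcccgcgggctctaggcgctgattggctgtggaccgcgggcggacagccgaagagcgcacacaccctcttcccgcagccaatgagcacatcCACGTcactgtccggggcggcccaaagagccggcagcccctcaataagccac
Ldha: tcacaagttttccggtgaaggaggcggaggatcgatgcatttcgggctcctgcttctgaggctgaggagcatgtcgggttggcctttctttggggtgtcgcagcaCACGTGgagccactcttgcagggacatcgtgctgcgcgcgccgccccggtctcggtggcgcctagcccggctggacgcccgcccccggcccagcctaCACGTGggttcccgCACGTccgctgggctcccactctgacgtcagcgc
The Hk2 window held the motif in 2 places and no E-box, and the Ldha window held it in 3 places, 2 of which are E-boxes. Ldha has 2 RefSeq windows and Hk2 has 1. For Ldha the window with the most motifs was chosen, and the other one, not shown, held no such motif. Of the 39 enzymes with a window in the RefSeq table, 10 had the motif and 3 (Ldha, Ogdh and Pfkm) an E-box, where 18.5% and 6.86% of 27025 genes did. A match to these letters is a description of the window and not a sign of binding.

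Phosphofructokinase commits sugar to glycolysis, and its platelet-type subunit gene Pfkp provided most of its counts here. Pfkp had 222 and 225 counts from Il10-eGFP− and 138 and 158 counts from Il10-eGFP+ T cells, with no overlap. Its level was 314.8 ± 19.1 against 223.3 ± 6.56 CPM (SD, n = 2 each). The log2 fold change was -0.49 with a standard error of 0.16, and the adjusted p was 0.0671 with edgeR, which did not pass the threshold. It did pass with limma on the rlog values (adjusted p = 0.0473, where 0.974% of all genes were lower) and with edgeR on the genes with at least 10 counts in every library (adjusted p = 0.0357, where 3.19% were lower), and was 0.372 with DESeq2. Every one of the 251 sequences of 50 bases at the end of the Pfkp transcript lies within exons of Pitrm1 on the opposite strand. Pitrm1 had 66 and 83 counts from Il10-eGFP− and 47 and 41 from Il10-eGFP+ T cells. The strand option of the counting is not given in the sources used here, so that reads of the 2 genes cannot be told apart with certainty.

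Pfkl, the liver-type subunit, had 38 and 32 against 22 and 23 counts, also without overlap, and a log2 fold change of -0.53 (standard error 0.33, edgeR adjusted p = 0.481). Pfkm, the muscle-type subunit, had only 3, 4, 5 and 2 counts, and its log2 fold change of 0.11 had a standard error of 0.98. Since Pfkp and Pfkl had similar fold changes, the share of Pfkp among the counts of the 3 subunits was alike in every library, at 84.4% and 86.2% for Il10-eGFP− and 83.6% and 86.3% for Il10-eGFP+ T cells. The summed level of the 3 genes was 357 and 381 CPM against 261 and 264 CPM.

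**Figure D2:**
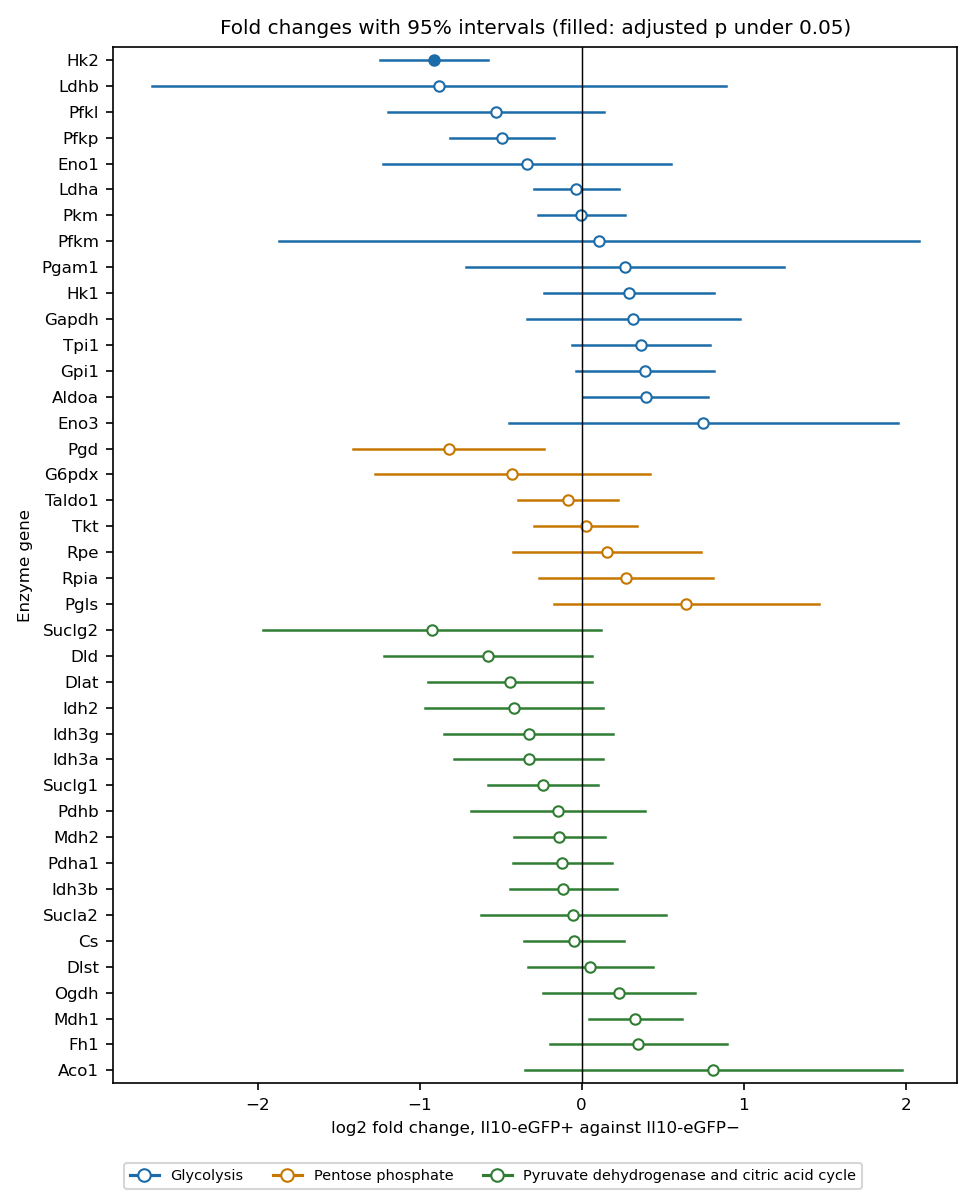
Log2 fold change of each of the 40 enzymes, Il10-eGFP+ against Il10-eGFP−, with its 95% interval from the edgeR fit, ordered within each pathway and coloured by pathway. The filled point is the 1 enzyme with an adjusted p under 0.05, Hk2 at -0.91, and the other intervals that exclude zero are those of Pfkp, Pgd, Aldoa and Mdh1.

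Over glycolysis and lactate dehydrogenase, the 15 genes had a median log2 fold change of 0.11 and a summed level of 2727 and 2642 against 2554 and 2515 CPM. The lower part of glycolysis, from aldolase to pyruvate kinase, had 5 genes with positive and 2 with negative log2 fold changes, and 0 of the 7 passed the test. Pkm, which encodes pyruvate kinase and had the most counts of this step, had 568 and 474 counts from Il10-eGFP− and 507 and 456 from Il10-eGFP+ T cells. Its level was 731.3 ± 56.1 against 730.6 ± 102.9 CPM (SD, n = 2 each), and the populations overlapped. The log2 fold change of -0.0035 had a 95% interval from -0.27 to 0.26, which does not reach the interval of Hk2. Counts at the 3′ end do not separate the M1 and M2 splice forms of Pkm, so that only the gene total was measured.

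Aldoa, which cleaves fructose 1,6-bisphosphate, had 101 and 79 against 107 and 113 counts, or 137 and 115 against 170 and 163 CPM. Both Il10-eGFP+ libraries were higher on the CPM scale. Its log2 fold change was 0.39 (standard error 0.19), with an unadjusted p of 0.0464 and an adjusted p of 0.31 with edgeR. Tpi1, the triose phosphate isomerase, had 72 and 67 against 82 and 85 counts and a log2 fold change of 0.37, with no overlap and an edgeR adjusted p of 0.427. Pgam1, a phosphoglycerate mutase, had 11, 13, 12 and 15 counts. Eno3 had 10 and 4 against 10 and 12 counts and the largest log2 fold change of the step, 0.75 with a standard error of 0.60. This value ran from 0.29 to 1.47 without 1 library at a time. Eno1, the major enolase of most tissues, had 14 and 24 against 14 and 14 counts and a log2 fold change of -0.34 (standard error 0.44). None of these differences passed the test.

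Gapdh and Eno1 had few counts, and the ends of both transcripts have close copies among annotated genes. Gapdh had 35 and 21 counts from Il10-eGFP− and 28 and 37 from Il10-eGFP+ T cells, a log2 fold change of 0.32 (standard error 0.33). Of the 50-base sequences at the end of its transcript, 82.9% also occur in other annotated genes, 99 in number, of which 39 had counts. The counts of these copies summed to 17 and 20 in the Il10-eGFP− and 22 and 37 in the Il10-eGFP+ libraries. For Eno1, 90.0% of such sequences are shared with Eno1b, which had 1 count in all. Reads that match a gene and its copy can be discarded or split in counting, so the values of Gapdh and Eno1 are uncertain. The end of the Rpe transcript likewise lies wholly in Kansl1l on the other strand, which had 3 to 5 counts per library. In all, 32 of the 40 enzymes shared no such sequence with another gene, and 4 (Pfkp, Rpe, Eno1 and Gapdh) shared over 80%. Exons of another gene on either strand overlapped 15 of them, and the partner with the most counts was Nop56, with up to 179 per library, opposite Idh3b.

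The listed genes left out for low counts were at or near zero in Il10-eGFP− T cells. Aldoc, a further aldolase, had 0 and 0 counts against 4 and 3, and Idh1, the cytosolic isocitrate dehydrogenase, 0 and 0 against 2 and 6. Pgk1, the phosphoglycerate kinase that follows Gapdh, had 1, 1, 4 and 3 counts, although its annotated end shares no 50-base sequence with another gene. A count of 0 allows up to 3 counts per library, so no fold change is given for these genes.

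Lactate dehydrogenase was carried almost wholly by Ldha. Ldha had 566 and 537 counts from Il10-eGFP− and 439 and 568 from Il10-eGFP+ T cells, or 775.9 ± 10.8 against 757.5 ± 87.6 CPM (SD, n = 2 each). The 2 Il10-eGFP+ libraries lay on either side of both Il10-eGFP− libraries. The log2 fold change was -0.03 with a standard error of 0.13 and a 95% interval from -0.30 to 0.23. Ldhb, the heart-type subunit, had 5 and 7 against 2 and 4 counts, a log2 fold change of -0.88 with a standard error of 0.88. The interval of Ldha and that of Hk2 (-1.24 to -0.58) did not overlap.

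**Figure D3:**
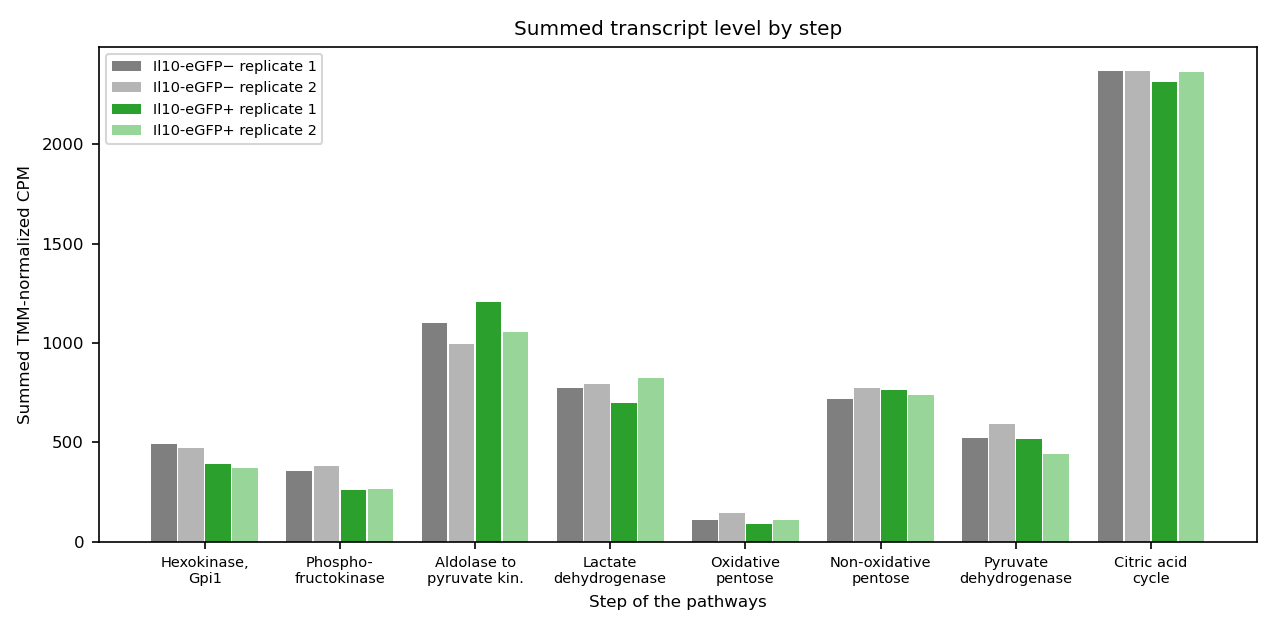
Summed TMM-normalized CPM of the enzymes at each step, with 1 bar per library (grey shades, Il10-eGFP−; green shades, Il10-eGFP+) and an axis that starts at 0. Hexokinase with Gpi1 (494 and 473 against 390 and 369 CPM) and phosphofructokinase (357 and 381 against 261 and 264 CPM) have lower green bars, while the citric acid cycle is level (2370 and 2371 against 2315 and 2363 CPM).

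In the pentose phosphate pathway, 0 of 7 genes passed the test. The median log2 fold change was 0.03, with 4 genes above and 3 below zero, and -0.00042 when counts were scaled by library size only. Summed levels were 829 and 916 against 852 and 848 CPM. The oxidative branch, which makes NADPH, had the larger differences. Pgd, the 6-phosphogluconate dehydrogenase (ENSMUSG00000028961), had 52 and 54 counts from Il10-eGFP− and 20 and 36 from Il10-eGFP+ T cells. Both Il10-eGFP+ libraries were lower and they differed from each other, at 31.7 and 51.9 CPM beside 70.6 and 78.8 CPM. The log2 fold change was -0.82 with a standard error of 0.29 and an interval from -1.41 to -0.23, an unadjusted p of 0.00724 and an adjusted p of 0.105 with edgeR. Without the first Il10-eGFP+ library the log2 fold change was -0.52, and without the second it was -1.23.

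G6pdx, the first enzyme of the branch, had 19 and 23 against 16 and 13 counts and a log2 fold change of -0.43 (standard error 0.42). Pgls, the lactonase between them, had 11 and 21 against 20 and 27 counts and a log2 fold change of 0.64 (standard error 0.41). That of Pgls ran from 0.20 to 1.24 without 1 library at a time. The share of Pgd among the counts of the 3 oxidative genes was 63.4% and 55.1% for Il10-eGFP− and 35.7% and 47.4% for Il10-eGFP+ T cells. In the non-oxidative branch the 4 log2 fold changes lay between -0.08 and 0.27. Taldo1, the transaldolase, had 258 and 212 against 213 and 199 counts and a log2 fold change of -0.08 (standard error 0.15). Tkt, the transketolase, had 189 and 239 against 193 and 214 counts and a log2 fold change of 0.03. Rpia, which makes ribose 5-phosphate, had the largest value of the branch, 0.27 with a standard error of 0.27, from 43, 43, 42 and 55 counts.

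Over pyruvate dehydrogenase and the citric acid cycle together, 13 of 18 genes had a negative log2 fold change, where 50% of all genes tested did, and the median was -0.13. None of the 18 passed the test, and their summed level was 2893 and 2962 against 2830 and 2806 CPM. Without the first Il10-eGFP+ library the median was -0.23.

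Pyruvate dehydrogenase links glycolysis to the citric acid cycle, and its 4 genes all had negative log2 fold changes, with 0 past the test. Pdha1, the E1 alpha subunit, had 236 and 230 against 204 and 195 counts and a log2 fold change of -0.12 with an interval from -0.43 to 0.19. Pdhb, its E1 partner, had 45 and 57 against 44 and 42 counts. Dlat, the E2 subunit, had 67 and 72 against 59 and 36 counts and a log2 fold change of -0.44 (standard error 0.25, edgeR adjusted p = 0.424). For Dlat the value was -0.91 without the first Il10-eGFP+ library and -0.067 without the second. Dld, the E3 subunit that the complex shares with 2-oxoglutarate dehydrogenase, had 37 and 46 against 18 and 34 counts and the largest difference, -0.58 with a standard error of 0.32 and an adjusted p of 0.398 with edgeR. Its log2 fold change was -0.25 without the first Il10-eGFP+ library and -1.03 without the second. The populations overlapped for each of these genes but Dld.

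The citric acid cycle had 5 positive and 9 negative log2 fold changes among 14 genes, with a median of -0.08. Again 0 genes passed the test. Cs, the citrate synthase that opens the cycle, had 223 and 246 against 193 and 231 counts and a log2 fold change of -0.05, with an interval from -0.35 to 0.26. The NAD-dependent isocitrate dehydrogenase subunits Idh3a, Idh3b and Idh3g had log2 fold changes of -0.33, -0.11 and -0.33. Idh2, its NADP-dependent mitochondrial relative, had 66 and 42 against 33 and 42 counts and a log2 fold change of -0.42 (standard error 0.27), which ran from -0.66 to -0.12 without 1 library at a time. Ogdh and Dlst, of the 2-oxoglutarate dehydrogenase complex, had 0.23 and 0.05, and Fh1, the fumarase, had 0.35. Aco1, the cytosolic aconitase, had 11, 5, 20 and 6 counts, with 1 Il10-eGFP+ library far above the rest, and a log2 fold change of 0.81 (standard error 0.58), which was -0.37 without that library.

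Succinyl-CoA synthetase combines the alpha subunit Suclg1 with either Suclg2, which gives a GTP-forming enzyme, or Sucla2, which gives an ATP-forming one. Suclg2 had 20 and 13 counts from Il10-eGFP− and 10 and 6 from Il10-eGFP+ T cells, without overlap. Its log2 fold change of -0.92 had a standard error of 0.52 and an adjusted p of 0.414 with edgeR, and ran from -1.40 to -0.54 without 1 library at a time. Sucla2 had 53 and 34 against 35 and 43 counts and a log2 fold change of -0.05 (standard error 0.28). Suclg1 had 169 and 174 against 140 and 130 counts and a log2 fold change of -0.24 (standard error 0.17). Suclg2 was 27.4% and 27.7% of the counts of both beta subunits for Il10-eGFP− and 22.2% and 12.2% for Il10-eGFP+ T cells.

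The genes of the malate dehydrogenases had log2 fold changes of opposite sign. Mdh1, the cytosolic form, had 280 and 300 counts from Il10-eGFP− and 309 and 373 from Il10-eGFP+ T cells, or 408.9 ± 40.8 against 513.9 ± 34.3 CPM (SD, n = 2 each). Both Il10-eGFP+ libraries were higher. Its log2 fold change was 0.33 (standard error 0.14), with an unadjusted p of 0.0235 and an adjusted p of 0.221 with edgeR. Mdh2, the mitochondrial form, had 394 and 331 against 294 and 319 counts and a log2 fold change of -0.14 (standard error 0.14, interval -0.42 to 0.14). The share of Mdh1 among the counts of the pair was 41.5% and 47.5% for Il10-eGFP− and 51.2% and 53.9% for Il10-eGFP+ T cells. With 2 libraries of each population, an exact two-sided permutation test of any such share cannot give a p below 0.333, and none was run.

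**Figure D4:**
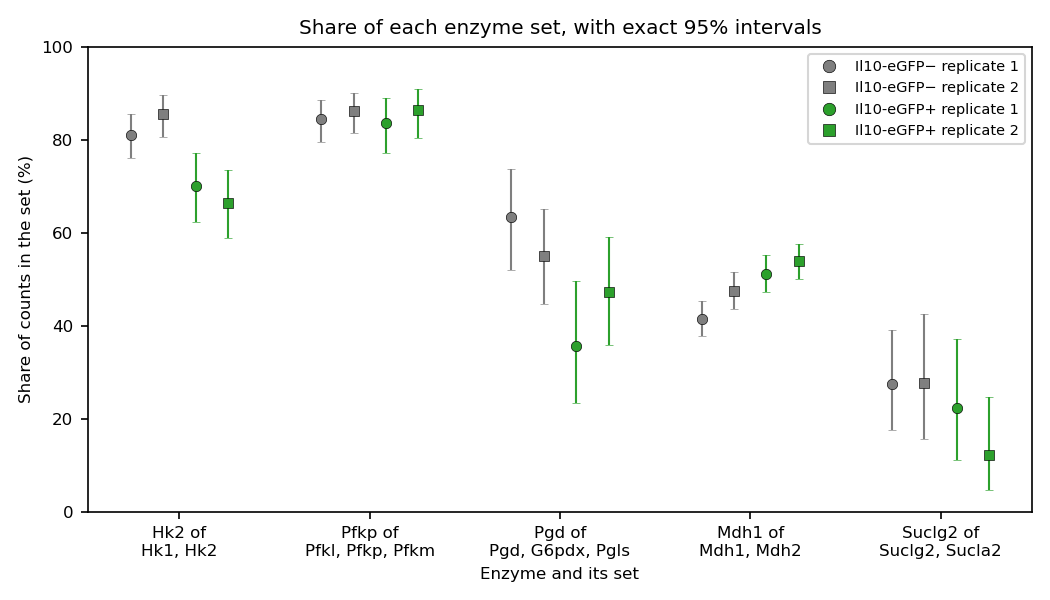
Share of counts taken by 1 enzyme within its set in each library, in percent, with exact 95% intervals that cover counting error only (grey, Il10-eGFP−; green, Il10-eGFP+). Hk2 takes 81.2% and 85.5% of the hexokinase counts in grey against 70.1% and 66.5% in green, while Pfkp takes between 83.6% and 86.3% of the phosphofructokinase counts.

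Around the core enzymes, 89 further genes of these pathways were examined (transporters, other isoenzymes, kinases and phosphatases that control flux, mitochondrial carriers and transcription factors), and 52 had enough counts to test. Of these 52, 1 was higher and 2 were lower at an adjusted p under 0.05 with edgeR, close to the 2.35% and 1.74% of all genes tested. Max, which encodes the obligate partner of MYC, had 229 and 264 counts from Il10-eGFP− and 123 and 154 from Il10-eGFP+ T cells, a log2 fold change of -0.73 (standard error 0.16, edgeR adjusted p = 0.00286). Myc, which drives glycolytic genes in activated T cells, had 27 and 19 against 7 and 7 counts and a log2 fold change of -1.59 (standard error 0.49, edgeR adjusted p = 0.0465). Me2, a mitochondrial malic enzyme that turns malate into pyruvate, had 34 and 28 against 59 and 54 counts and a log2 fold change of 0.97 (standard error 0.28, edgeR adjusted p = 0.0304). For all 3 genes the populations did not overlap.

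These calls were lost when single libraries were left out, unlike that of Hk2. Without 1 library at a time the adjusted p of Me2 was 0.0544 to 0.22 and that of Myc 0.0656 to 0.292, and Max lost its call without the second Il10-eGFP− library (0.0953) or the first Il10-eGFP+ library (0.0534), all with edgeR. Me2 also missed the threshold with DESeq2 (adjusted p = 0.342) and with limma on the rlog values (adjusted p = 0.0563), and Myc with the latter (adjusted p = 0.14) and with limma voom (adjusted p = 0.0673). Hk2 kept its call without each library in turn, with log2 fold changes from -0.95 to -0.88 and edgeR adjusted p from 0.001 to 0.00529. Hif1a, the oxygen-regulated subunit of HIF-1, had 194 and 139 against 163 and 187 counts and a log2 fold change of 0.18 (standard error 0.17). The glucose transporter genes Slc2a1, with 25, 15, 26 and 17 counts, and Slc2a3, with 14, 12, 8 and 9 counts, had log2 fold changes of 0.22 and -0.50 with standard errors of 0.40 and 0.54. Slc16a1, a lactate and pyruvate transporter named here after its values were seen, had 76 and 61 against 39 and 37 counts and a log2 fold change of -0.74 (standard error 0.25, edgeR adjusted p = 0.0883).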

How the data were processed

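Splenic CD4+ T cells were profiled in 4 libraries, 2 per population, made from the 3′ ends of transcripts with QuantSeq FWD and unique molecular identifiers. The deposited counts are whole reads assigned to each Ensembl gene on GRCm38, without normalization, from the BlueBee QuantSeq pipeline (the submitters' processing notes name STAR 2.5.2a and HTSeq 0.6.0). The authors also deposited rlog values, which are on a log2 scale and come from DESeq2. Per the labels and methods, the identifiers served to judge PCR duplicates and remove amplification bias, without saying whether the deposited counts are of collapsed reads. The annotation release and the strand option are not given in the sources used here. The labels name the PureLink RNA Micro kit and the paper's methods the Arcturus Picopure kit.

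Genes with a total of at least 10 counts were tested with edgeR 4.0.16 (R 4.3.3; TMM, glmQLFit and glmQLFTest, legacy default) and adjusted by the Benjamini-Hochberg method over 9608 genes, with a threshold of 0.05. DESeq2 1.42.0 and limma 3.58.1 were alternatives. The edgeR fit was tried on simulated counts. It recovered 34.0% of genes changed by a log2 fold change of 1, and 72.3% of those changed by 2. Among its calls, 5.03% and 3.86% were false. Many genes with a log2 change of 1 were thus missed at this depth. Symbols were missing for 419 of 47643 identifiers. Coordinates and transcript ends (the last 300 bases, in sequences of 50) came from GENCODE M21 on GRCm38, and promoters from RefSeq. Members and gene lists were chosen with earlier results of these data known. Full values were given for each enzyme past the threshold, for those with the most counts and the largest absolute log2 fold change at each step, and for isoenzyme sets. The other enzymes are named by role. Some genes are not reported here. Libraries came from replicate mice. The tests set each difference against the spread between libraries, estimated for each gene with information shared over all genes tested. With 2 libraries of each population, the p-values therefore lean largely on the spread of other genes, and not on that of the gene alone. Intervals of shares are exact (Clopper-Pearson, 95%).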

Additional observations from a re-analysis of the deposited data

How the results depend on the processing

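Of the 14 alternatives, 10 gave 1 enzyme called and 0 gave an enzyme that was called higher. The count was 2, all lower, with at least 10 counts in every library, with limma on rlog values and with edgeR under a replicate block, and 0 with DESeq2 under a replicate block, where the adjusted p of Hk2 was 0.0817. The second enzyme in each case was Pfkp (adjusted p = 0.0213 under the edgeR replicate block). Leaving out each library in turn gave 1 called enzyme each time, and moved the median log2 fold change from -0.15 to 0.012 over all 40 enzymes and from -0.23 to -0.12 over pyruvate dehydrogenase and the citric acid cycle. The methods speak of a replicate pair, but no source used here states that libraries of the same number share a mouse, and their deviations had a correlation of 0.0324 over 4965 genes. Over all genes 393 were called, against 560 with edgeR under the replicate block, 39 with DESeq2 under it, 112 with DESeq2, 197 with limma on the rlog values and 212 to 272 without 1 library. Of 650 values of 47 genes (the 40 enzymes and 7 further genes of the pathways), 586 kept their direction and their side of the threshold, and 24 kept their direction but had no adjusted p with DESeq2, 2 of them for Myc. Under the DESeq2 replicate block Max (adjusted p = 0.197) and Me2 (adjusted p = 0.734) also lost their calls, and 0 of the further genes were called. The 20 values that changed sign belonged to 12 of the 43 genes that were not called in the edgeR test. Pfkm was -0.019 with limma voom, Pkm 0.0030 with at least 10 counts in every library and Tkt -0.00042 with library size only. Without 1 library, Pfkm ran from -0.14 to 0.66, Pkm from -0.15 to 0.13, Eno1 from -0.73 to 0.15, Ldha from -0.16 to 0.078, Tkt from -0.19 to 0.26, Taldo1 from -0.20 to 0.031, Pdhb from -0.36 to 0.090, Cs from -0.17 to 0.080, Aco1 from -0.37 to 1.48, Dlst from -0.014 to 0.12, Sucla2 from -0.29 to 0.24 and Slc2a1 from -0.19 to 0.57. The cause of these changes was not tested. Depth limited the enzymes with few counts, and standard errors over the 40 ran from 0.13 to 0.98.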
